A study of Arabidopsis thaliana with 12 samples.

Results

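Jasmonate catabolism was described through 10 genes of Arabidopsis thaliana that encode enzymes which oxidise, hydroxylate, cleave or sulfate jasmonates. They were taken by locus identifier from the deposited tables of 33323 genes: JOX1 (AT3G11180), JOX2 (AT5G05600), JOX3 (AT3G55970), JOX4 (AT2G38240), CYP94B1 (AT5G63450), CYP94B3 (AT3G48520), CYP94C1 (AT2G27690), IAR3 (AT1G51760), ILL6 (AT1G44350) and ST2A (AT5G07010). All 10 were found, and 8 of them had enough counts to be among the 19059 genes tested. JOX1 and CYP94B3 did not, and are given by their counts.

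Whole rosettes, with roots left out, were compared in 4 genotypes with 3 RNA-seq libraries each. These were jazDcdk8-1, which combines jazD with cdk8-1; jazD, a line mutant in 10 of the 13 JAZ repressor genes; cdk8-1, a mutant of the Mediator kinase gene CDK8; and the wild type Col-0. Plants stood for 18 days on peat pellets and 7 days in soil, under 16 h of light and 8 h of dark at 20 °C, and the labels name no treatment. Each library came from a separate pool of about 20 plants and mutants and wild type shared a tray.

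Jasmonoyl-isoleucine is the active hormone: it makes the receptor COI1 bind JAZ repressors, which are then degraded, so that MYC transcription factors and their targets switch on. Cells remove the signal by separate routes. JOX enzymes (jasmonate oxidases, 2-oxoglutarate-dependent dioxygenases) hydroxylate free jasmonic acid before it can be conjugated. Enzymes of the CYP94 cytochrome P450 family oxidise the conjugate itself, CYP94B members to the 12-hydroxy form and CYP94C1 further to the 12-carboxy form. IAR3 and ILL6 are amidohydrolases, which cleave conjugates between hormone and amino acid, and ST2A is a sulfotransferase that sulfates 12-hydroxyjasmonate. Genes for these enzymes are known as jasmonate-induced in leaves.

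The stretch of 300 bases before the annotated gene start is shown for 4 members, because the results below set them apart from each other. JOX3 and JOX4 transcripts were much higher in jazD than in the other genotypes, and the few counts of JOX1 were all in jazD. ILL6 kept the largest share of its jazD level in jazDcdk8-1 among the tested members. JOX2, not shown here, also stayed well above Col-0 in jazDcdk8-1. Sequences are from RefSeq TAIR10.1 and read 5′ to 3′ on the strand of the gene, and capitals mark a G-box (CACGTG, the core element bound by MYC factors).
JOX1, chr3:3503617-3503916, plus strand: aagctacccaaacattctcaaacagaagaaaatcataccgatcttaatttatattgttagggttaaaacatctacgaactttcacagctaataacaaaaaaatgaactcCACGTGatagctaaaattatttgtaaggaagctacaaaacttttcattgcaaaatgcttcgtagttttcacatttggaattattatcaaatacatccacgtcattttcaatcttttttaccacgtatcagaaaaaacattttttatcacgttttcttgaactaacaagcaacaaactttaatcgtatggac
JOX3, chr3:20769411-20769710, minus strand: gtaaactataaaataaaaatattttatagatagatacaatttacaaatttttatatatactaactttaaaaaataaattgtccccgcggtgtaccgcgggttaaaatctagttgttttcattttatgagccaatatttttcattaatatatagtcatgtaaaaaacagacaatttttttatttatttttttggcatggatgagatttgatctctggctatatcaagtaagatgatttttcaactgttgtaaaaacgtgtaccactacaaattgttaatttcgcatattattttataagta
JOX4, chr2:16014992-16015291, minus strand: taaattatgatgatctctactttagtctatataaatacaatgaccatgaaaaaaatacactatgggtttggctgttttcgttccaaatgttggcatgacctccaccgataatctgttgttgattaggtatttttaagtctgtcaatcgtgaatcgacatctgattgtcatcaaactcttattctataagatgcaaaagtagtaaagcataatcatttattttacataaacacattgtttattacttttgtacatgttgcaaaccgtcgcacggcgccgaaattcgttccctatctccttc
ILL6, chr1:16838563-16838862, minus strand: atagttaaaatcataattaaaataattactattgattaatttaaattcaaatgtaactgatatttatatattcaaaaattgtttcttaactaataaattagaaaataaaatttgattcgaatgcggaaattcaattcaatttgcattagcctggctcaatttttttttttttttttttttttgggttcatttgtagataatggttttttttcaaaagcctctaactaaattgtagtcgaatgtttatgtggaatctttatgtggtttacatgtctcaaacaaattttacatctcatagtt
The JOX1 stretch held a G-box 191 bases before the gene start, and the other 3 stretches held none. Only exact matches of CACGTG were searched, so variants of it were not counted. Over the 10 members, 1 window of 300 bases held CACGTG, against 7.18% of 26711 promoters, and 0 held the GCC box (GCCGCC, searched on both strands like the G-box), against 2.24%. In windows of 1000 bases CACGTG occurred in 3 members (JOX1, CYP94B1 at 371 bases and IAR3 at 506 and 594 bases before the start), against 14.9% of promoters, and GCCGCC in 1 (IAR3, at 931 bases), against 8.45%. The window of JOX2 overlapped the neighbouring gene AT5G05598. The annotated gene starts lie between 32 bases (CYP94B1) and 407 bases (ST2A) before the first coding base.

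The libraries held 17583465 to 21030372 counts. CDK8 had 49, 69 and 71 counts in jazDcdk8-1 and 46, 53 and 55 in cdk8-1, against 388, 409 and 339 in jazD and 335, 370 and 406 in Col-0, so the cdk8-1 labels fit the transcript. Rosette markers were abundant (RBCS1A between 16730 and 24480 CPM, counts scaled by TMM-adjusted library size), the root markers COBL9 and EXPA7 had 1 and 0 counts over all libraries, and CASP1 had at most 0.287 CPM. The flower marker AP3 had 2 counts over the jazDcdk8-1 libraries, 0 in jazD, 1 in cdk8-1 and 11 in Col-0. PI, another flower marker, was also counted, with 9, 14 and 8 counts in jazDcdk8-1. The part of flower tissue in the libraries was not tested. Among 83 genes with a jazD level 4-fold or more below Col-0, 42 lay between 17 and 24 Mb of chromosome 5, a stretch with 6.73% of the genes tested. The limits of this stretch were not part of the plan, so both shares are a description. None of the 10 members lies in it, but AOS, MYC3, MYC5, PDF1.2A, TCH4, ILL1, ILL2 and ILL3 of the lists below do. The counts and medians of those lists include them. CYP94B1 (chromosome 5, 25408821 to 25410725) lies 52636 bases from CDK8. The third cdk8-1 library stood apart: it was the highest of the 3 cdk8-1 libraries for 9 of 9 jasmonate defense genes and for 6 of the 9 members with any counts there. Results that rest on cdk8-1 are therefore given with and without it where they change.

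In jazD against Col-0, 8 of the 8 tested members were higher and 0 lower (edgeR quasi-likelihood F-test, adjusted p below 0.05), where 21.8% of all genes tested were higher and 20.9% lower. In jazDcdk8-1 against jazD, 8 were lower and 0 higher, where 19.0% of all genes were lower and 16.9% higher. In cdk8-1 against Col-0, 6 were lower and 0 higher, where 13.8% of all genes were lower and 11.7% higher. In jazDcdk8-1 against Col-0, 4 were higher and 0 lower, where 16.3% of all genes were higher and 16.1% lower. The median log2 fold change of the tested members was 2.37 in jazD against Col-0, -1.04 in jazDcdk8-1 against jazD and -0.94 in cdk8-1 against Col-0, beside medians of 0.0 over all genes in each. These comparisons share libraries, so they are not independent of each other. CYP94B1 had enough counts to be tested only through jazD and jazDcdk8-1, where it was high, so the count of tested members is a description. Without a filter on low counts all 10 members entered the test: 9 were then higher in jazD against Col-0 (17.7% of all genes), 10 lower in jazDcdk8-1 against jazD (15.8%) and 7 lower in cdk8-1 against Col-0 (11.1%). JOX1 entered this run through its jazD counts alone, so these numbers are a description as well.

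**Figure D1:**
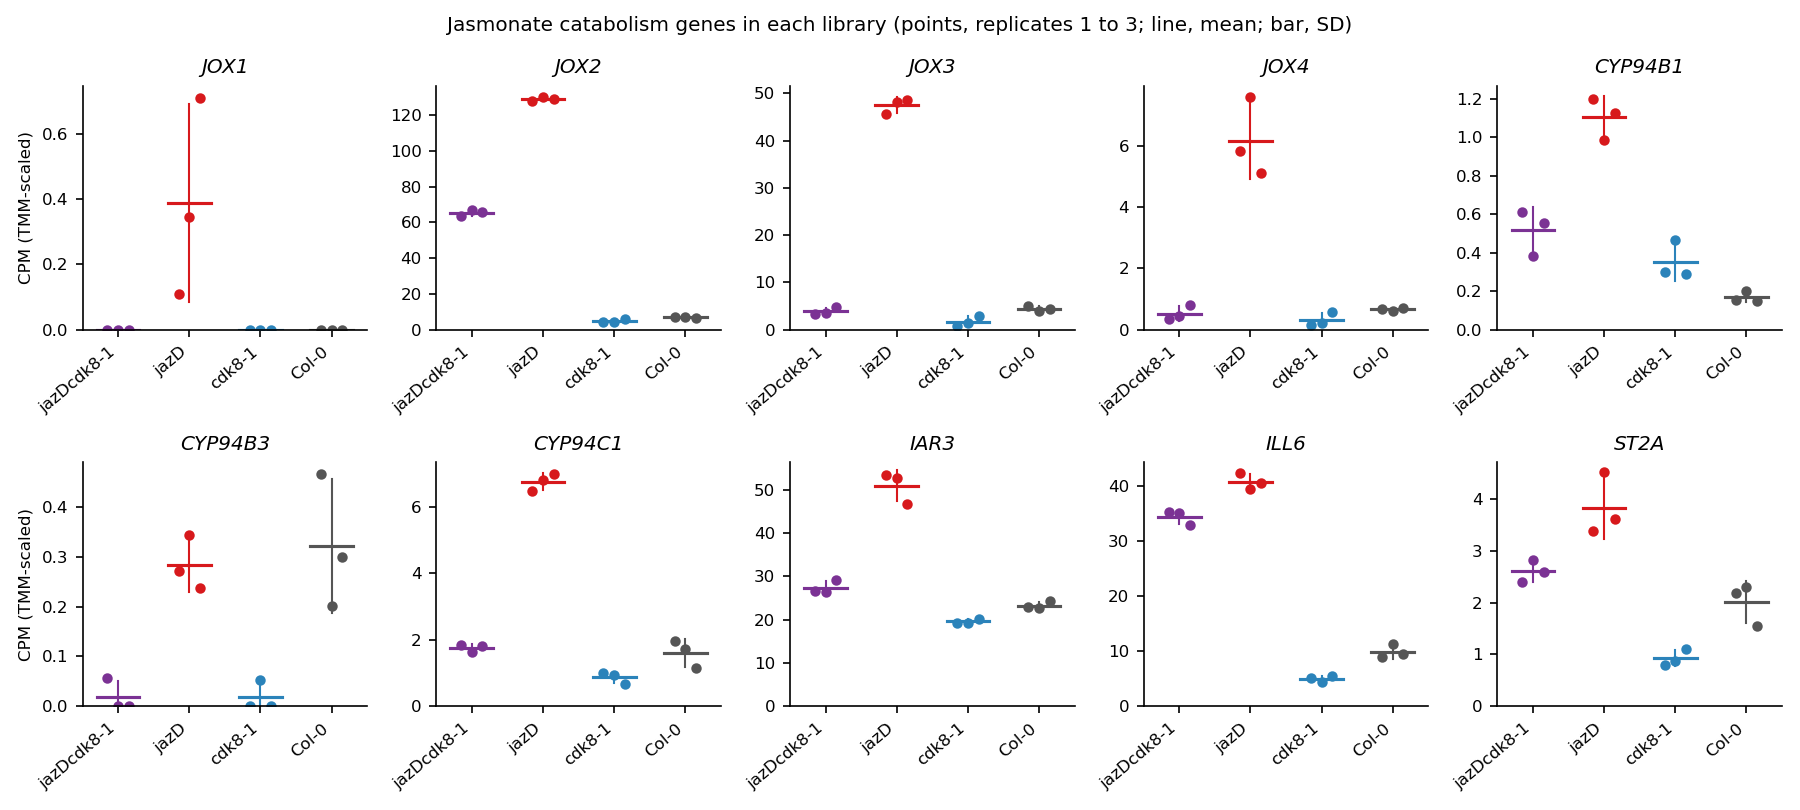
Each panel shows one member, with CPM on a linear axis from 0 and the 4 genotypes on the horizontal axis. Points are the 3 libraries of a genotype, the horizontal line is their mean and the vertical bar the SD. The jazD libraries are highest in every panel except CYP94B3, where they overlap with Col-0.

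Between jazD and Col-0, the 3 highest folds of the tested members belonged to jasmonate oxidase genes. JOX2 was the most abundant of the 4. It had 63.57, 67.01 and 66.0 CPM in jazDcdk8-1, 127.9, 130.2 and 129.0 in jazD, 4.241, 4.342 and 5.812 in cdk8-1, and 7.213, 6.925 and 6.697 in Col-0. The 4 genotypes did not overlap, and their order was jazD, jazDcdk8-1, Col-0 and cdk8-1. JOX2 was 18.6-fold higher in jazD than in Col-0 (log2 4.22 ± 0.07, approximate SE, adjusted p = 3.74e-21), rank 67 from the top among all genes tested. Loss of CDK8 was accompanied by a 1.97-fold lower level in the jazD background (adjusted p = 5.66e-12) and a 1.44-fold lower level with intact JAZ genes (adjusted p = 0.00075). In jazDcdk8-1 the gene was still 9.44-fold above Col-0 (log2 3.24 ± 0.07, adjusted p = 2.08e-18).

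JOX3 was high in jazD alone. Its libraries had 3.226, 3.54 and 4.771 CPM in jazDcdk8-1, 45.69, 48.25 and 48.62 in jazD, 0.7983, 1.396 and 2.882 in cdk8-1, and 4.878, 4.014 and 4.448 in Col-0. The jazD libraries stood far above all others, and those of jazDcdk8-1 overlapped with Col-0. JOX3 was 10.7-fold higher in jazD than in Col-0 (log2 3.42 ± 0.15, adjusted p = 4.77e-14) and 12.2-fold lower in jazDcdk8-1 than in jazD (log2 -3.61 ± 0.15, adjusted p = 5.49e-14), rank 49 from the bottom among all genes tested. Its level in jazDcdk8-1 and in Col-0 was not distinguished (log2 -0.20 ± 0.21, adjusted p = 0.512). In cdk8-1 it was 2.59-fold lower than in Col-0 (log2 -1.38 ± 0.25, adjusted p = 0.000226), and without the third cdk8-1 library the log2 value was -2.02 (adjusted p = 1.19e-06).

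JOX4 followed the same pattern at lower counts. There were 6, 9 and 17 counts in jazDcdk8-1, 107, 154 and 86 in jazD, 3, 4 and 12 in cdk8-1, and 13, 12 and 14 in Col-0. Only jazD stood clear of the other genotypes. The gene was 9.32-fold higher in jazD than in Col-0 (log2 3.22 ± 0.27, adjusted p = 3.45e-09) and 11.6-fold lower in jazDcdk8-1 than in jazD (log2 -3.54 ± 0.28, adjusted p = 2.28e-09). In jazDcdk8-1 against Col-0 it was not called (log2 -0.32 ± 0.40, adjusted p = 0.597). The comparison of cdk8-1 with Col-0 turned on 1 library: log2 -1.05 ± 0.45 with all libraries (adjusted p = 0.0983) and -1.85 without the third cdk8-1 library (adjusted p = 0.0158).

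JOX1 was counted in jazD alone, with 0, 0 and 0 counts in jazDcdk8-1, 2, 7 and 12 in jazD, 0, 0 and 0 in cdk8-1, and 0, 0 and 0 in Col-0. With a floor of 3 counts set for a group without any, its level was about 7.61-fold lower in jazDcdk8-1 than in jazD. In jazD it was about 7.45-fold higher than in Col-0. The 21 counts of jazD were taken as observed, so these folds are not lower limits. Tested without the filter on low counts, both differences were called (adjusted p = 0.000611 and 0.000528). JOX1 entered that test only through its jazD counts, so these calls are a description. The coding sequences of JOX1 and JOX2 are 80.7% identical over 1083 aligned bases, with a longest shared run of 26 bases, and the other JOX pairs are 65.4% to 71.8% identical. JOX2 had 1143 to 1425 counts in the jazDcdk8-1 libraries and 2179 to 2650 in the jazD libraries, and whether JOX2 reads were counted as JOX1 was not tested.

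On a scale per length (TPM, transcript abundance corrected for transcript length and library size), the 4 JOX genes summed to 63.66 ± 3.29 in jazDcdk8-1, 151.1 ± 5.6 in jazD, 6.293 ± 2.07 in cdk8-1 and 10.5 ± 0.419 in Col-0 (mean ± SD, n = 3). The composition of the sum differed as well. JOX2 made up 93.7% ± 1.36 of it in jazDcdk8-1, 70.2% ± 0.712 in jazD, 72.1% ± 9.66 in cdk8-1 and 57.3% ± 2.04 in Col-0. JOX3 made up 5.54% ± 1.03 in jazDcdk8-1, 26.1% ± 0.533 in jazD, 23.4% ± 7.89 in cdk8-1 and 37.0% ± 1.82 in Col-0. The JOX2 share did not overlap between jazDcdk8-1 and any other genotype. In cdk8-1 it ran from 62.2% in the third library to 81.5% in the first, so the mean there describes 3 unlike libraries.

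**Figure D2:**
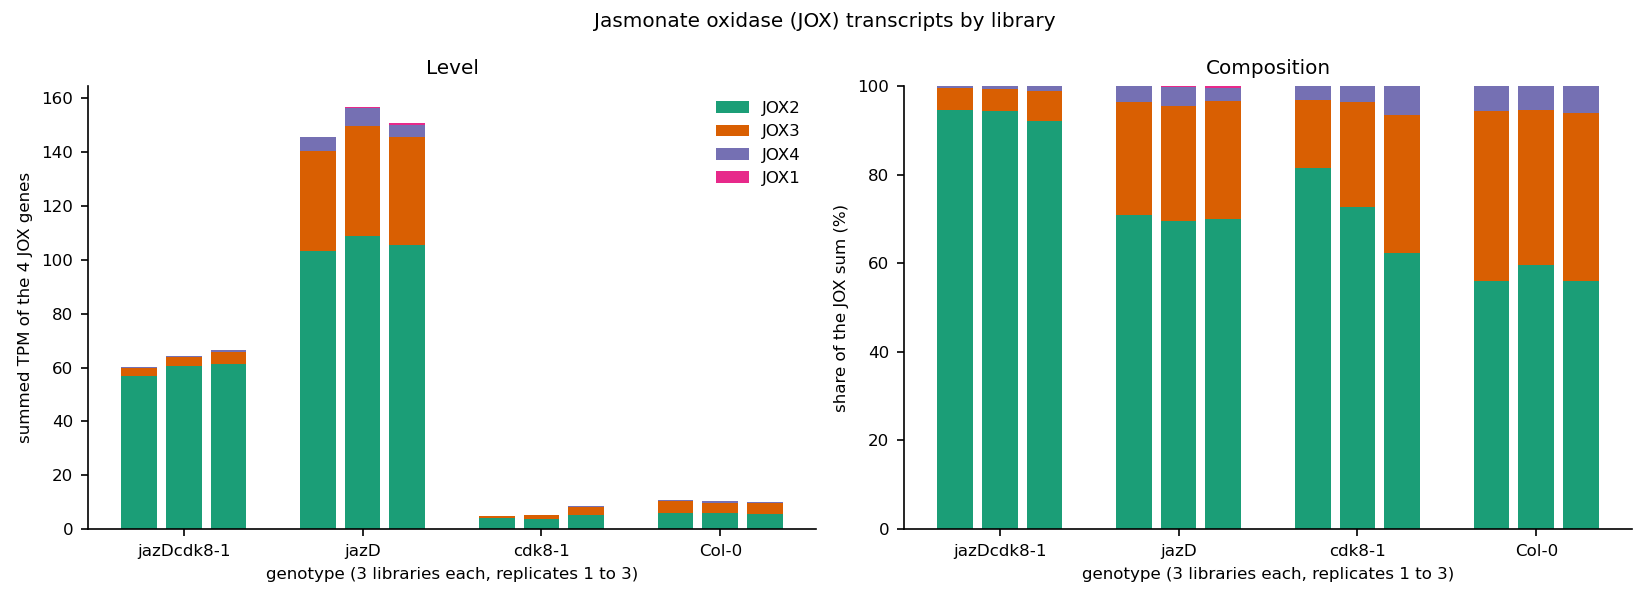
The left panel stacks the TPM of JOX2, JOX3, JOX4 and JOX1 in each of the 12 libraries, and the right panel gives each gene's share of that sum in percent. Bars are single libraries, grouped by genotype. The sum is 60.13 to 66.63 TPM in jazDcdk8-1 and almost all JOX2, while the jazD bars, at 145.6 to 156.8 TPM, hold a JOX3 layer of 26.1% on average.

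CYP94C1, which carries out the oxidation to the carboxy form, was the most abundant of the 3 P450 genes by TPM in each genotype. It had 1.835, 1.626 and 1.806 CPM in jazDcdk8-1, 6.48, 6.829 and 6.988 in jazD, 0.9978, 0.9304 and 0.6724 in cdk8-1, and 1.972, 1.706 and 1.15 in Col-0. The jazD libraries were the highest, the cdk8-1 libraries the lowest, and jazDcdk8-1 lay within the range of Col-0. CYP94C1 was 3.85-fold lower in jazDcdk8-1 than in jazD (log2 -1.94 ± 0.17, adjusted p = 1.19e-08) and in jazD 4.2-fold higher than in Col-0 (log2 2.07 ± 0.17, adjusted p = 3.71e-09). The level in jazDcdk8-1 was not distinguished from that in Col-0 (log2 0.13 ± 0.21, adjusted p = 0.691). In cdk8-1 it was 1.85-fold lower than in Col-0 (adjusted p = 0.00878), a call lost without Col-0 replicate 1 (adjusted p = 0.0569) or without the third cdk8-1 library (adjusted p = 0.0519).

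CYP94B1 and CYP94B3, both 12-hydroxylases of the conjugate, were near the limit of detection. CYP94B1 had 11, 8 and 12 counts in jazDcdk8-1, 22, 20 and 19 in jazD, 6, 9 and 6 in cdk8-1, and 3, 4 and 3 in Col-0, with every Col-0 library below every mutant library. It was 2.13-fold lower in jazDcdk8-1 than in jazD (log2 -1.09 ± 0.31, adjusted p = 0.00856). That call was lost with DESeq2 (adjusted p = 0.063) and without jazDcdk8-1 replicate 2 (adjusted p = 0.0519). Against Col-0 it was 6.31-fold higher in jazD (log2 2.66 ± 0.39, adjusted p = 9.68e-06) and 2.97-fold higher in jazDcdk8-1 (log2 1.57 ± 0.44, adjusted p = 0.00916). CYP94B1 entered the test only through jazD and jazDcdk8-1, where it was high, so its calls are a description. Unlike the other tested members its fitted value in cdk8-1 against Col-0 was above 0, at log2 1.02 ± 0.48, and not called (adjusted p = 0.141; called with limma on log2(TPM + 0.1), adjusted p = 0.049).

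CYP94B3 was detected where CDK8 was intact, whatever the state of the JAZ genes. It had 1, 0 and 0 counts in jazDcdk8-1, 5, 7 and 4 in jazD, 0, 1 and 0 in cdk8-1, and 9, 4 and 6 in Col-0. Every library with intact CDK8 had at least 4 counts and every library of the 2 cdk8-1 genotypes at most 1. The ratio of scaled counts was 0.0575 for jazDcdk8-1 over jazD (95% counting interval 0.00137 to 0.37), 0.0518 for cdk8-1 over Col-0 (0.00125 to 0.326) and 0.897 for jazD over Col-0 (0.431 to 1.84). Intervals cover counting error only, and the floor used for JOX1 covers only that of the group without counts. Without the filter on low counts, edgeR called it lower in jazDcdk8-1 than in jazD (adjusted p = 0.00515) and in cdk8-1 than in Col-0 (adjusted p = 0.00376), but not in jazD against Col-0 (adjusted p = 0.903). The coding sequences of CYP94B1 and CYP94B3 are 77.4% identical, with a longest shared run of 31 bases.

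The amidohydrolase genes were among the more abundant members in all genotypes and differed in how far they kept their jazD level in jazDcdk8-1. ILL6 had 35.26, 35.06 and 32.98 CPM in jazDcdk8-1, 42.42, 39.55 and 40.51 in jazD, 5.089, 4.445 and 5.379 in cdk8-1, and 8.873, 11.24 and 9.496 in Col-0. The libraries of the 4 genotypes did not overlap, but jazDcdk8-1 lay close under jazD. ILL6 was 4.13-fold higher in jazD than in Col-0 (log2 2.05 ± 0.08, adjusted p = 5.33e-15) and still 3.48-fold higher in jazDcdk8-1 than in Col-0 (log2 1.80 ± 0.08, adjusted p = 1.57e-13). Its difference between jazDcdk8-1 and jazD was the smallest among the tested members, log2 -0.25 ± 0.07 (adjusted p = 0.00625). It was not called with limma on log2(TPM + 1) (-0.10, adjusted p = 0.405), with limma on log2(TPM + 0.1) (adjusted p = 0.456) or with total-count scaling (-0.17, adjusted p = 0.055). With intact JAZ genes, by contrast, it was 1.98-fold lower in cdk8-1 than in Col-0 (log2 -0.99 ± 0.10, adjusted p = 3.17e-07).

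IAR3 had 26.64, 26.45 and 29.09 CPM in jazDcdk8-1, 53.42, 52.72 and 46.85 in jazD, 19.26, 19.28 and 20.17 in cdk8-1, and 22.83, 22.63 and 24.24 in Col-0. Each genotype kept to its own range, with jazD well above the other 3. IAR3 was 1.86-fold lower in jazDcdk8-1 than in jazD (log2 -0.90 ± 0.06, adjusted p = 2.12e-10) and 2.2-fold higher in jazD than in Col-0 (log2 1.14 ± 0.06, adjusted p = 3.23e-12). Its small differences from Col-0 depended on the setting. In jazDcdk8-1 log2 was 0.24 ± 0.07 (adjusted p = 0.0077), and the call was lost without jazDcdk8-1 replicate 3 (adjusted p = 0.0557). In cdk8-1 it was -0.25 ± 0.07 (adjusted p = 0.0102), and the call was lost without Col-0 replicate 3 (adjusted p = 0.0567), with total-count scaling (adjusted p = 0.0721) or with limma on log2(TPM + 1) (adjusted p = 0.112) and log2(TPM + 0.1) (adjusted p = 0.106). By TPM, IAR3 made up 49.5% ± 2.24 of the sum of both genes in jazDcdk8-1, 60.6% ± 1.71 in jazD, 82.9% ± 1.12 in cdk8-1 and 74.4% ± 2.69 in Col-0. IAR3 shares 87.8% of its coding sequence with ILL5, a related gene nearby, with a longest shared run of 44 bases. ILL5 had 0, 0 and 0 counts in jazDcdk8-1, 10, 10 and 13 in jazD, 0, 1 and 0 in cdk8-1, and 1, 3 and 0 in Col-0. Whether reads of one were given to the other was not tested.

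ST2A, the sulfotransferase gene, had the smallest difference between jazD and Col-0 among the tested members. It had 2.392, 2.822 and 2.594 CPM in jazDcdk8-1, 3.376, 4.52 and 3.613 in jazD, 0.7983, 0.8787 and 1.105 in cdk8-1, and 2.179, 2.308 and 1.549 in Col-0. Every library of cdk8-1 was below every other library, and jazDcdk8-1 lay between jazD and Col-0 without overlap. The difference between jazDcdk8-1 and Col-0 was not called (log2 0.37 ± 0.20, adjusted p = 0.156). ST2A was 1.91-fold higher in jazD than in Col-0 (log2 0.94 ± 0.19, adjusted p = 0.000363) and 2.16-fold lower in cdk8-1 than in Col-0 (log2 -1.11 ± 0.24, adjusted p = 0.00128). In jazDcdk8-1 against jazD log2 was -0.56 ± 0.18 (adjusted p = 0.0185). This call was lost with DESeq2 (adjusted p = 0.0543), with limma on log2(TPM + 1) (adjusted p = 0.0665) or log2(TPM + 0.1) (adjusted p = 0.112), and without jazD replicate 2 (adjusted p = 0.112) or jazDcdk8-1 replicate 1 (adjusted p = 0.0583) or 3 (adjusted p = 0.0519). ST2A shares 91.6% of its coding sequence and a run of 53 bases with the adjacent gene ST2B, so counts of either may include reads of the other. ST2B was also higher in jazD than in Col-0 (log2 0.56 ± 0.11, adjusted p = 0.000277) and lower in jazDcdk8-1 than in jazD (-0.44 ± 0.11, adjusted p = 0.003) and in cdk8-1 than in Col-0 (-0.34 ± 0.12, adjusted p = 0.0378).

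**Figure D3:**
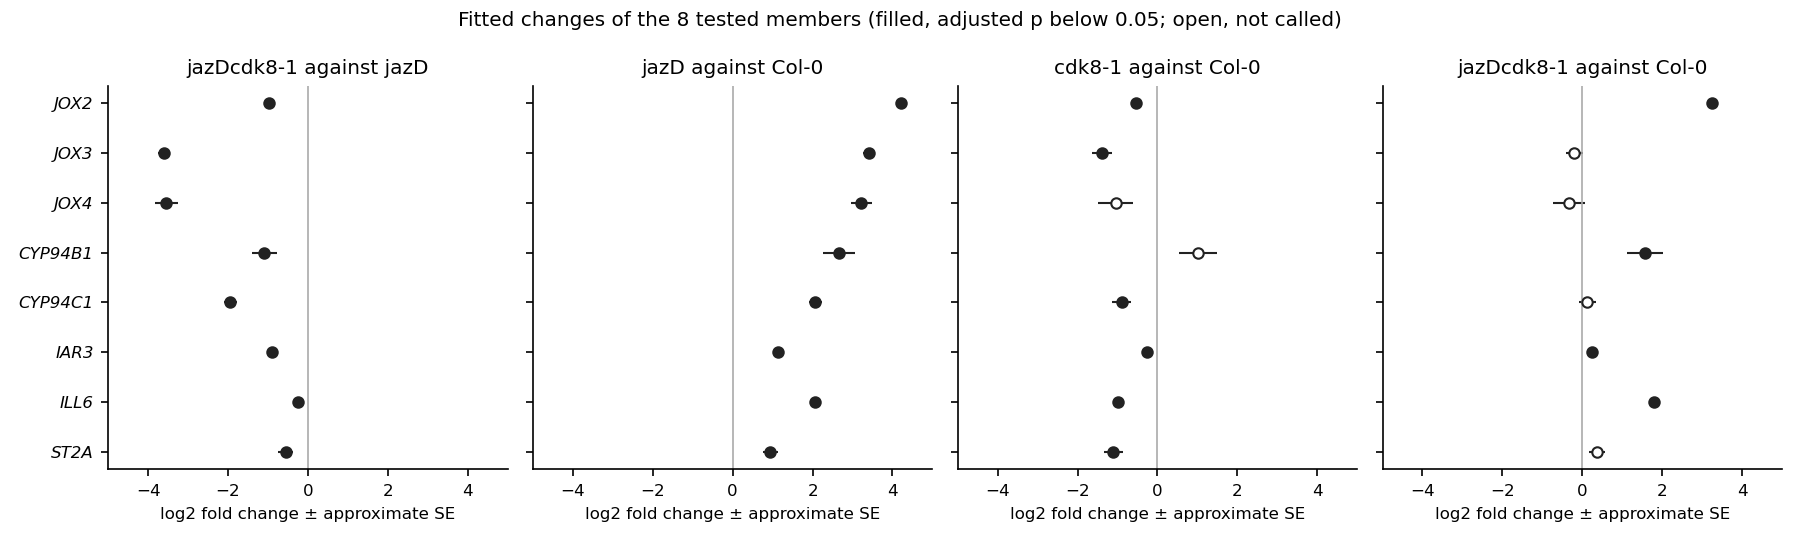
The horizontal axis is the fitted log2 fold change with its approximate SE, and each row is a tested member. Filled points were called at an adjusted p below 0.05 and open points were not. Points of jazDcdk8-1 against jazD run from -3.61 for JOX3 to -0.25 for ILL6, while those of jazD against Col-0 run from 0.94 for ST2A to 4.22 for JOX2.

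The members thus kept very different parts of their jazD level when CDK8 was also mutated. By mean CPM of the 8 tested members, jazDcdk8-1 held 84.3% of the jazD level for ILL6, 67.8% for ST2A, 53.7% for IAR3, 50.8% for JOX2, 46.9% for CYP94B1, 26.0% for CYP94C1, 8.39% for JOX4 and 8.09% for JOX3. These shares include the Col-0 level and do not measure how much of the rise in jazD was kept. The jazD level was 1.91-fold that of Col-0 for ST2A and 2.19-fold for IAR3, but 4.14-fold for ILL6 and 18.6-fold for JOX2. Against Col-0, jazDcdk8-1 had log2 0.37 for ST2A (not called) and 0.24 for IAR3, but 1.80 for ILL6 and 3.24 for JOX2. With intact JAZ genes, cdk8-1 held 50.4% of the Col-0 level for ILL6, 46.1% for ST2A, 84.2% for IAR3, 69.1% for JOX2, 53.9% for CYP94C1, 47.2% for JOX4 and 38.0% for JOX3, but 208% for CYP94B1, whose difference was not called. Without the third cdk8-1 library the level in cdk8-1 was 27.1% of Col-0 for JOX4 and 24.7% for JOX3. CYP94B3, at few counts, held 6.52% in jazDcdk8-1 of its jazD level and 5.34% in cdk8-1 of its Col-0 level, and JOX1 had no counts in jazDcdk8-1, cdk8-1 or Col-0. Whether the CDK8 difference itself depended on the JAZ background was asked with an interaction term, (jazDcdk8-1 minus jazD) minus (cdk8-1 minus Col-0).

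The interaction was called for 7 of the 8 tested members, 6 below 0 and 1 above 0, where 8.39% of all genes tested were called below 0 and 8.16% above 0. CYP94B1, 1 of the 7, entered the test only through jazD and jazDcdk8-1, where it was high. Its call and the count of 7 are therefore a description. JOX4 (log2 -2.49 ± 0.60, adjusted p = 0.00607), JOX3 (-2.24 ± 0.32, adjusted p = 4.76e-05) and CYP94B1 (-2.11 ± 0.57, adjusted p = 0.0137) had the lowest values. For these genes the level in the CDK8 mutant relative to its own background was lower with the JAZ genes mutated. CYP94C1 (-1.05 ± 0.31, adjusted p = 0.0213), IAR3 (-0.65 ± 0.09, adjusted p = 3.85e-05) and JOX2 (-0.45 ± 0.12, adjusted p = 0.0127) had smaller values of the same sign. ILL6 had the opposite sign, 0.74 ± 0.12 (adjusted p = 0.000236), and ST2A was not called (0.55 ± 0.30, adjusted p = 0.238). Without the third cdk8-1 library the JOX3 value was -1.59 (adjusted p = 0.00111), and JOX4 (-1.68, adjusted p = 0.143) and JOX2 (-0.28, adjusted p = 0.157) were no longer called. The CYP94C1 call was lost without Col-0 replicate 3 (adjusted p = 0.0526) or cdk8-1 replicate 1 (adjusted p = 0.0746) or 2 (adjusted p = 0.0588). That of CYP94B1 was lost without cdk8-1 replicate 2 (adjusted p = 0.0564) and with DESeq2 (adjusted p = 0.0567), and that of JOX2 with limma on log2(TPM + 0.1) (adjusted p = 0.0838).

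The same question can be read from the JAZ side, as jazDcdk8-1 against cdk8-1 beside jazD against Col-0, which share no library. In jazDcdk8-1 against cdk8-1, 6 of the 8 tested members were higher and 0 lower, where 12.7% of all genes were higher and 11.2% lower. JOX2 was 13.6-fold higher (log2 3.77 ± 0.08, adjusted p = 3.72e-19), ILL6 6.9-fold (2.79 ± 0.09, adjusted p = 4.76e-16) and ST2A 2.79-fold (1.48 ± 0.22, adjusted p = 4e-05). JOX3 was 2.26-fold higher there (1.18 ± 0.25, adjusted p = 0.0014), and its log2 value was 1.82 without the third cdk8-1 library (adjusted p = 5.61e-06). CYP94C1 was 2.02-fold higher (1.02 ± 0.24, adjusted p = 0.00295) and IAR3 1.4-fold (0.49 ± 0.07, adjusted p = 1.25e-05). JOX4 (0.73 ± 0.47, adjusted p = 0.292; 1.54 and adjusted p = 0.0547 without the third cdk8-1 library) and CYP94B1 (0.55 ± 0.38, adjusted p = 0.338) were not called.

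**Figure D4:**
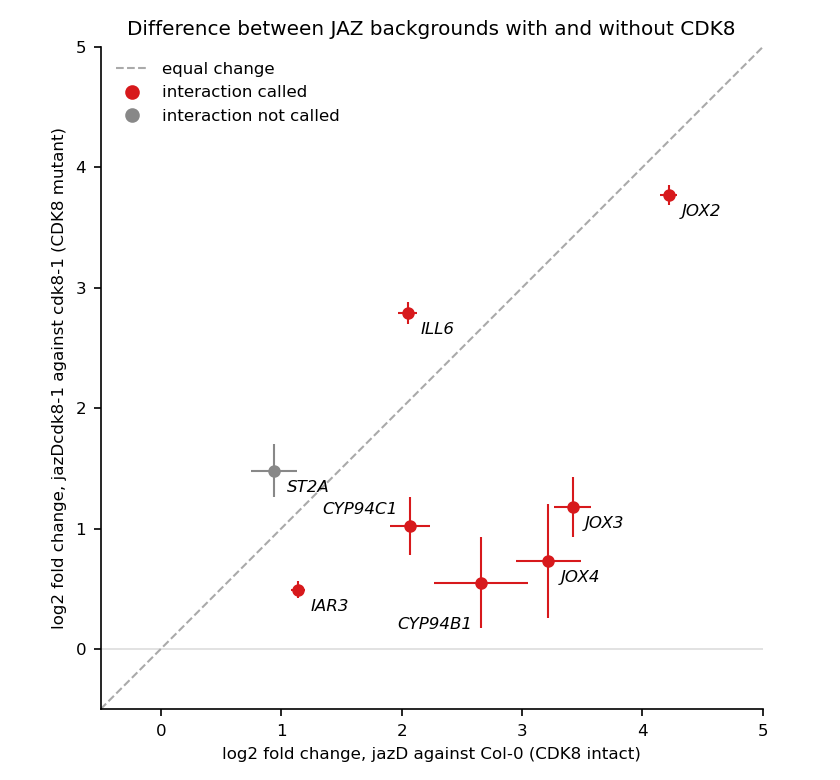
The horizontal axis is the log2 fold change of jazD against Col-0 and the vertical axis that of jazDcdk8-1 against cdk8-1, with approximate SE bars and a dashed line of equal change. Each point is a tested member, red where the interaction was called and grey where it was not. JOX3, JOX4, CYP94B1, CYP94C1, IAR3 and JOX2 lie below the line, ILL6 (2.05 and 2.79) and ST2A (0.94 and 1.48) above it.

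Summed by route, the order of the TPM values differed between genotypes. The amidohydrolase genes summed to 40.25 ± 1.09 TPM in jazDcdk8-1, 55.35 ± 2.66 in jazD, 17.39 ± 1.06 in cdk8-1 and 21.69 ± 1.03 in Col-0. The CYP94 genes summed to 1.5 ± 0.174 TPM in jazDcdk8-1, 4.763 ± 0.15 in jazD, 0.8233 ± 0.153 in cdk8-1 and 1.303 ± 0.311 in Col-0. ST2A alone had 2.31 ± 0.203 TPM in jazDcdk8-1, 3.077 ± 0.542 in jazD, 0.83 ± 0.148 in cdk8-1 and 1.703 ± 0.369 in Col-0. The JOX sum was above the amidohydrolase sum in jazDcdk8-1 and jazD and below it in cdk8-1 and Col-0, with no overlap between libraries in any genotype. Relative to Col-0 the JOX sum was 6.06-fold in jazDcdk8-1, while the CYP94 sum was 1.15-fold, a difference smaller than the SD of the Col-0 libraries. Transcript sums do not measure enzyme amounts or hormone levels. In these bulk samples fewer cells that express a gene and less RNA per cell cannot be told apart.

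Jasmonate synthesis genes, a list of 19 of which 18 were tested, were read in the same comparisons. As a measure for this list and those below, 21.8% of all genes tested were higher and 20.9% lower in jazD against Col-0. These shares were 16.9% and 19.0% in jazDcdk8-1 against jazD, and 11.7% and 13.8% in cdk8-1 against Col-0. In jazD against Col-0, 14 were higher and 2 lower (median 0.85, all genes 0.0). In jazDcdk8-1 against jazD, 1 was higher and 11 lower (median -0.25, all genes 0.0). With total-count scaling 2 were higher and 9 lower there (median -0.17), and with limma on log2(TPM + 1), which moved the median of all genes by 0.126, 6 were higher and 9 lower (median -0.10). AOC1 (3.24 ± 0.06), an allene oxide cyclase gene, and LOX2 (3.09 ± 0.05), the main chloroplast lipoxygenase gene of the pathway, led in jazD. In jazDcdk8-1 against jazD, LOX4, another lipoxygenase gene, had the lowest value (-1.97 ± 0.09, adjusted p = 5.51e-13), and LOX2 had -0.74 ± 0.05 (adjusted p = 4.05e-11). In cdk8-1 against Col-0, 3 were higher and 7 lower (median -0.02), but 7 higher and 5 lower with total-count scaling (median 0.06), so that no direction is given. The 10 catabolism genes summed to 3.03% ± 0.032 of the TPM sum of the synthesis list in jazDcdk8-1, 4.56% ± 0.042 in jazD, 1.98% ± 0.15 in cdk8-1 and 2.87% ± 0.04 in Col-0. These shares did not overlap between genotypes: the jazDcdk8-1 libraries had 2.99% to 3.06% and the Col-0 libraries 2.83% to 2.91%.

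The receptor and transcription factor list (9 genes) had 6 higher and 2 lower in jazD against Col-0 (median 0.51) and 2 higher and 2 lower in jazDcdk8-1 against jazD (median 0.07; 4 and 1 with total-count scaling, 5 and 0 with limma on log2(TPM + 1)). The split in jazDcdk8-1 against jazD was close to that of all genes tested, 16.9% higher and 19.0% lower. MYC2, the main factor of the leaf response, was higher in jazD than in Col-0 (1.71 ± 0.07, adjusted p = 1.12e-14) and slightly lower in jazDcdk8-1 than in jazD (-0.30 ± 0.06, adjusted p = 0.000652). Its interaction value was 0.02 ± 0.10 (adjusted p = 0.909). The 13 JAZ genes, of which 12 were tested, included 5 higher and 5 lower in jazD against Col-0, where most carry mutations, and 0 higher and 7 lower in jazDcdk8-1 against jazD (median -0.56; 2 and 7 with limma on log2(TPM + 1)). JAZ10, among the 5 higher, had 2.17 ± 0.18 in jazD against Col-0 and -1.63 ± 0.16 in jazDcdk8-1 against jazD. JAZ6 (-3.47 ± 0.11), JAZ2 (-3.03 ± 0.11) and JAZ1 (-2.26 ± 0.15) had the lowest values in jazD against Col-0. With most of these genes mutated, a JAZ value in jazD or jazDcdk8-1 may be that of a mutant allele. Among 8 tested defense outputs, 7 were higher and 0 lower in jazD against Col-0 (median 5.81), and 0 higher and 8 lower in jazDcdk8-1 against jazD (median -2.23).

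Of 6 genes that respond to touch and early stress, 5 were higher and 0 lower in jazD against Col-0 (median 1.04), and 0 higher and 5 lower in jazDcdk8-1 against jazD (median -1.12). In jazDcdk8-1 against jazD the counts were 1 higher and 4 lower with total-count scaling and 1 and 3 with limma on log2(TPM + 1). TCH2, a calmodulin-like gene, was not called in either (-0.11, adjusted p = 0.384, and 0.21, adjusted p = 0.0883) and was higher in cdk8-1 than in Col-0 (0.26 ± 0.09, adjusted p = 0.042). TCH3, a touch-induced calmodulin-like gene, had 37.41 to 45.02 CPM in jazDcdk8-1, 136.9 to 210.2 in jazD, 23.97 to 28.17 in cdk8-1 and 73.79 to 92.63 in Col-0. ZAT10, a stress-induced zinc finger gene, had a log2 of 1.99 ± 0.18 in jazD against Col-0 and -2.26 ± 0.18 in jazDcdk8-1 against jazD. Several members are known to be wound-induced, and the part of handling or stress in their values was not tested.

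Of 11 relatives of the members and other jasmonate-modifying enzymes, 8 were tested: 6 were higher and 1 lower in jazD against Col-0 (median 0.52), and 1 higher and 2 lower in jazDcdk8-1 against jazD (median -0.09, and 0.05 with limma on log2(TPM + 1)). The latter counts were close to the shares of all genes tested, 16.9% higher and 19.0% lower. JMT, which methylates jasmonic acid, had 6.374 ± 0.367 CPM in jazDcdk8-1, 6.262 ± 0.428 in jazD, 4.674 ± 0.68 in cdk8-1 and 2.533 ± 0.248 in Col-0. It was higher in jazD than in Col-0 (1.31 ± 0.14, adjusted p = 1.64e-07), not called in jazDcdk8-1 against jazD (0.02 ± 0.12, adjusted p = 0.906), and higher in cdk8-1 than in Col-0 (0.88 ± 0.15, adjusted p = 0.000101). UGT76E1, a glucosyltransferase gene, was higher in jazD than in Col-0 (1.42 ± 0.38, adjusted p = 0.0042) and not called in jazDcdk8-1 against jazD (-0.51 ± 0.33, adjusted p = 0.254). The amidohydrolase genes ILL2 and ILL3 were higher in jazD than in Col-0 by 0.56 ± 0.09 (adjusted p = 4.82e-05) and 0.49 ± 0.15 (adjusted p = 0.0118), and ILL2 was lower in jazDcdk8-1 than in jazD (-0.43 ± 0.09, adjusted p = 0.00101). Both lie between 17 and 24 Mb of chromosome 5, as does the related gene ILL1. ILR1 (0.29 ± 0.11, adjusted p = 0.0411) was higher in jazD than in Col-0, CYP94D2 was lower (-0.25 ± 0.07, adjusted p = 0.00842), and ILL1 was not called (0.16 ± 0.07, adjusted p = 0.0582). CYP94B2 had 1 count over the jazDcdk8-1 libraries, 6 in jazD, 0 in cdk8-1 and 0 in Col-0, and CYP94D1 had 0 in all.

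The members lie on chromosomes 1, 2, 3 and 5, and no annotated gene overlaps any of them. FAD7, next to JOX1, differed by -0.24 in jazD against Col-0 (adjusted p = 5.67e-05) and was not called in jazDcdk8-1 against jazD (-0.03, adjusted p = 0.571). PDX1.1 lies 19 bases from the 3′ end of JOX4. For jazD against Col-0 its value was -0.10 (adjusted p = 0.152), and for jazDcdk8-1 against jazD -0.29 (adjusted p = 0.000383). The genes on both sides of JOX3 differed in the direction of JOX3 but less: AT3G55960 by 0.51 (adjusted p = 1.64e-07) and SZF1 by 0.39 (adjusted p = 0.0277) in jazD against Col-0, and by -0.64 (adjusted p = 9.85e-09) and -0.58 (adjusted p = 0.0028) in jazDcdk8-1 against jazD. The neighbours of CYP94B1, AT5G63440 (0.23, adjusted p = 0.189) and AT5G63460 (0.07, adjusted p = 0.681), were not called in cdk8-1 against Col-0.

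By Pearson correlation of log2 CPM over the 12 libraries, which mostly reflects the 4 genotype levels, JOX3 and JOX4 were each other's nearest gene among all tested (r = 0.9881). Next to both came AT2G41710 (0.9866 with JOX3 and 0.9801 with JOX4). Nearest to JOX2 were CORI3 (0.9993) and LOX2 (0.999), both jasmonate-induced genes, and JOX2 itself correlated with JOX3 at 0.77. Nearest to CYP94C1 were UGT71B6 (0.9898) and FDH (0.9884), and to IAR3 PLA2A (0.994) and AT4G03420 (0.9933). ILL6 was nearest to VHA-E3 (0.9907) and CAT3 (0.9905), ST2A to AT2G14910 (0.9768) and VTI1B (0.9735), and CYP94B1 to PYL5 (0.9754) and AT4G03020 (0.9732). Among the members themselves the lowest correlation was between CYP94B1 and ST2A, at 0.58.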

How the data were processed

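Messenger RNA was measured in 12 libraries from 4 genotypes. The deposited expected counts and the deposited TPM values were made by the authors with RSEM 1.2.25, per the file headers, against TAIR10, per the submitters' processing notes. Of the expected counts 3.423% were not whole, so counts were rounded. The aligner, the strand setting and the annotation release are not given in the sources used here. Reads were not realigned, and genes were named from RefSeq TAIR10.1, where 32835 of 33323 identifiers were found and 488 were not. The transcripts of a family with near-identical stretches may share reads.

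Rounded counts went into edgeR 4.0.16 under R 4.3.3. Genes were filtered with filterByExpr (minimum count 10) and libraries scaled by TMM. The 4 genotype means were fitted to the 12 libraries in 1 model, and each of 6 comparisons had its quasi-likelihood F-test, with p-values adjusted by Benjamini-Hochberg over 19059 genes and called below 0.05. The approximate SE is the absolute log2 fold change over the square root of F. The model was first run on simulated data with the same spread for all genes and changes placed only in genes above a low CPM limit. That run does not cover members below the limit or with a larger spread. Total counts of 17583465 to 21030372 leave genes under about 10 counts per library imprecise. TPM sums were not tested. Replicates of a genotype are separate pools, with chi-square per degree of freedom of 1.929 to 4.876 between them, so none is a duplicate.

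The members, the 6 gene lists and the rule for named genes were chosen with earlier results of these data known. The rule names the 10 members, CDK8, relatives of the members, chromosome neighbours, the 2 nearest genes by correlation and, from each list, at most 4 called genes of 1 CPM or more, taken by size of change. Values of UGT76E1, and of list genes in comparisons where they were not among those 4, were given after they had been seen. Promoter windows of 300 and 1000 bases and coding sequences were read from TAIR10.1 (Biopython 1.88). Alternatives were RLE scaling, no filter, a minimum of 1 CPM in 3 libraries, tests with DESeq2 1.42.0, limma 3.58.1 on log2(TPM + 1) and log2(TPM + 0.1), only the groups compared, a replicate block, and each library left out. Total-count scaling and the coding identities were added after seeing the data.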

Additional observations from a re-analysis of the deposited data

Results flagged for a closer look

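The difference between the CDK8 mutant and its background had an interaction with the JAZ background that was called for 7 members in the edgeR model. CYP94B1 is 1 of them and had enough counts to be tested only through jazD and jazDcdk8-1, with 10 counts in all of Col-0, so its call is a description. The log2 value of the interaction was -2.49 for JOX4, -2.24 for JOX3, -2.11 for CYP94B1, -1.05 for CYP94C1, -0.65 for IAR3, -0.45 for JOX2 and 0.74 for ILL6. The JOX4 and JOX2 values rest in part on the third cdk8-1 library (-1.68 and -0.28 without it, neither called). For JOX3, IAR3 and ILL6 the call held in every alternative run and with each library left out, while those of CYP94B1 and CYP94C1 were lost in some. Why the values differ between members was not tested.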

How the results depend on the processing

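The number of members called stayed within 1.5 times its value in all 95 results under alternatives. It ran from 7 to 9 in jazD against Col-0, 6 to 10 in jazDcdk8-1 against jazD, 5 to 7 in cdk8-1 against Col-0, 3 to 5 in jazDcdk8-1 against Col-0 and 5 to 7 for the interaction, and was 6 throughout in jazDcdk8-1 against cdk8-1. Of 750 member values recomputed, 722 stayed on the same side of the threshold with no called value turned round, 26 lost a call, 2 gained one and 0 with a call changed sign. Libraries left out account for 14 of the losses, other settings for 12. The block for replicate number left the counts at 8, 8, 6, 4, 6 and 7 in the order jazD against Col-0, jazDcdk8-1 against jazD, cdk8-1 against Col-0, jazDcdk8-1 against Col-0, jazDcdk8-1 against cdk8-1 and interaction. Same-numbered libraries did not deviate together (correlations -0.0583 to 0.0508), so no shared effect of replicate number was seen. Whether the numbers pair the samples by design cannot be read from these correlations. Scaling moved the split of all called genes: in jazDcdk8-1 against jazD 47.1% were higher with TMM, 63.5% with total counts (median log2 of all genes 0.073) and 75.7% with limma on log2(TPM + 1) (median 0.126); in jazD against Col-0 51.0%, 44.5% and 37.9%; in cdk8-1 against Col-0 45.9%, 66.8% and 69.4%; in jazDcdk8-1 against Col-0 50.4%, 60.1% and 66.8%; in jazDcdk8-1 against cdk8-1 53.2%, 41.7% and 48.2%; and for the interaction 49.3%, 48.2% and 59.7%. TMM scaling of TPM moved 4 of 16 route sums by more than 1 SD, the JOX sum in jazD to 161.5 among them. JOX1, CYP94B1 and CYP94B3 are limited by depth.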
